A study of Homo sapiens with 5 samples.

Results

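The malic enzymes and the malate-aspartate shuttle are described here through 10 genes of the 64252 in the deposited table: ME1, ME2, ME3, MDH1, MDH2, GOT1, GOT2, SLC25A11, SLC25A12 and SLC25A13. The family was chosen because ME2 was strongly lower after FAM53C knock-down in these same libraries, and the other 9 genes were taken with it by function. The values of ME2 are therefore given as a description with no test, and only the other 9 genes were tested. RNA was sequenced from RPE-1 cells, an immortalized line of human retinal pigment epithelial cells, wild type by the labels and grown in high-glucose medium with 10% bovine growth serum. The 3 siCtrl libraries came from cells transfected with a non-targeting control siRNA (ON-TARGET Control #1), and the 2 siFAM53C libraries from cells transfected with pooled ON-TARGETplus siRNAs against FAM53C. Both were given at 5 µM by the labels, with Lipofectamine RNAiMAX, and collected 48 hr after transfection. The study's methods speak of duplicates, whereas 3 siCtrl libraries were deposited, and every deposited library was analysed. The labels do not say whether libraries of a condition came from separate cultures, so p-values measure only the spread between these libraries, which may be technical.

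Malic enzymes convert malate to pyruvate and in doing so reduce NAD(P)+. ME1 works in the cytosol and makes NADPH, and ME2 and ME3 work in mitochondria, where ME2 mainly uses NAD+ and ME3 NADP+. The malate-aspartate shuttle carries the reducing power of cytosolic NADH into mitochondria. In the cytosol MDH1 reduces oxaloacetate to malate, the carrier SLC25A11 brings malate in against 2-oxoglutarate, MDH2 oxidizes it again in the matrix, GOT2 and GOT1 interconvert oxaloacetate and aspartate on the 2 sides of the membrane, and SLC25A12 or SLC25A13 exports aspartate against glutamate.

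The libraries held between 19260124 and 25615415 counts on genes. FAM53C (ENSG00000120709), the targeted gene, was counted 1434, 1141 and 1099 times in siCtrl and 375 and 525 times in siFAM53C, and fell by 1.71 log2 units (SE 0.194), which passed edgeR's quasi-likelihood (QL) F test at an adjusted p = 0.003625. CDC25C and ENSG00000249971, on the opposite strand, overlap 704 exon bases of FAM53C. The FAM53C value is uncertain to that extent if the counting did not use strand. The libraries also split along a first principal component of log2 CPM (counts scaled to a common library total) that carried 39.8% of the variance: siCtrl replicate 3 fell together with siFAM53C replicate 2, opposite siCtrl replicates 1 and 2, while siFAM53C replicate 1 was near 0. Within-side differences are given below where they matter. They set siFAM53C replicate 1 against siCtrl replicates 1 and 2, and siFAM53C replicate 2 against siCtrl replicate 3. As siFAM53C replicate 1 lay on neither side by this component, its place with siCtrl replicates 1 and 2 was a choice. The fit with a term for the library split used the same choice. Among markers, the epithelial keratins KRT8 and KRT18 were at 148 to 328 CPM, KRT19, CDH1 and EPCAM at 0 to 5 counts, and the summed epithelial markers at 384 to 467 CPM in siCtrl and 500 to 502 CPM in siFAM53C. Of the retinal pigment epithelium markers, RPE65 had 0 counts in every library and RLBP1 and TYR 0 to 2, whereas MITF had 713 to 1053 and OTX2 281 to 403 counts, so several defining markers of that tissue were at or near 0. The mesenchymal markers VIM, CDH2 and FN1 were the highest, summing to 8530 to 11700 CPM in siCtrl and 8930 to 11000 CPM in siFAM53C; CDH2 alone was at 299, 289 and 391 CPM in siCtrl and at 214 and 266 CPM in siFAM53C. The summed endothelial markers were at most 0.849 CPM, with CDH5 at 0, and the summed immune markers at most 1.15 CPM. Apart from the within-side differences and the fit with a split term, the part of the split in the results below was not tested. Whether these markers have a part in them was not tested.

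ME2 (ENSG00000082212, plus strand of chr18:50879080-50954257 in GRCh38) was counted 1850, 1503 and 1413 times in siCtrl and 546 and 490 times in siFAM53C. In CPM, scaled by TMM factors, these were 78.5, 78.6 and 74.0 against 20.6 and 20.8. The siCtrl libraries were all high and close together, the siFAM53C libraries all low and almost equal, and the conditions lay far apart. The means were 77.1 ± 2.63 CPM (SD, n = 3) and 20.7 ± 0.113 CPM (SD, n = 2). The siFAM53C level was 3.72-fold lower, a log2 fold change of -1.90. Taken inside each side of this split, the log2 difference was -1.92 and -1.83, and under the 15 other settings it ranged from -1.92 to -1.82. From the lowest, ME2 held rank 103 of the log2 fold changes of the 15341 genes tested. Of the genes with a lower value than ME2, only 31 were called lower. No exon base of ME2 is shared with another annotated gene on either strand, and its processed pseudogene ME2P1 had 0 counts. In bulk RNA, fewer transcripts per cell and a change in the mix of cells cannot be told apart.

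The 3′ untranslated region (UTR) of the longest ME2 transcript is 7073 bases long and holds the heptamer GACAAGA at 2 places. The heptamer was chosen because earlier results on these same fold changes linked it to lower expression, so the counts below are a description and not independent support. The sites in ME2 start 52 and 4877 bases after the stop codon. The first lies at chr18:50947225-50947253 and the second at chr18:50952050-50952078 of GRCh38, both on the plus strand. They are shown because ME2 is the only 1 of the 10 genes with the heptamer, which is printed in capitals:
ME2 site 1: cccttttttcaGACAAGAagagataatgt
ME2 site 2: tttccatccaaGACAAGAccacacgtgtt

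**Figure D1:**
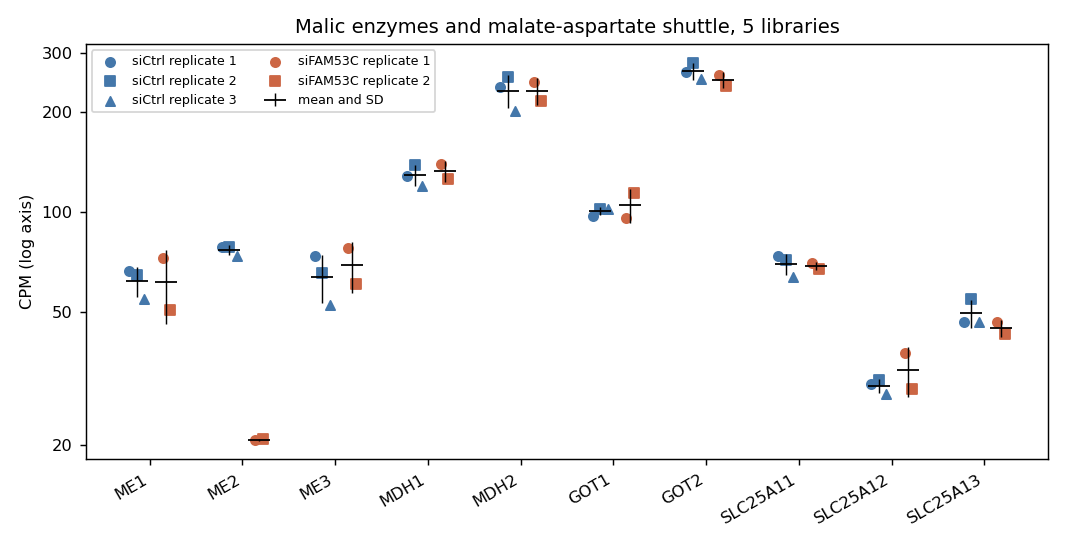
Level of each of the 10 genes in CPM (log axis) in the 3 siCtrl libraries (blue) and the 2 siFAM53C libraries (orange), with the symbol shape giving the replicate and black lines the mean and SD. ME2 lies at 74.0 to 78.6 CPM in siCtrl and 20.6 to 20.8 CPM in siFAM53C, while the points of 8 of the other 9 genes overlap between conditions.

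None of the other 9 genes passed the test: at an adjusted p below 0.05 in edgeR's QL test 0 were lower and 0 higher, and at an unadjusted p under 0.05 the counts were also 0 and 0, where over all tested genes 10.5% were lower and 6.61% higher. Over all 15341 tested genes, 3.47% were called lower and 0.489% higher. DESeq2 also called 0 of the 9 in either direction (6.98% lower and 2.02% higher over the 12749 genes it gave an adjusted p), as did limma-voom (3.35% and 0.482% of the 15341) and a fit with a term for the library split (10.7% and 6.76%). The log2 fold changes of the 9 genes lay between -0.15 and 0.16, with 4 below 0 and 5 above and a median of 0.0011, beside 0.016 over all tested genes. Their 95% intervals reached from -0.43 at the lowest to 0.52 at the highest, so none of them included the value of ME2. That ME2 stands apart from the other members is what the choice of the family used, and it is not a result.

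The cytosolic malic enzyme ME1 (ENSG00000065833, chr6:83210402-83431051, minus strand) was at 66.6, 64.9 and 54.7 CPM in siCtrl and 72.6 and 50.7 CPM in siFAM53C. The siFAM53C libraries held both the highest and the lowest of the 5 values. The log2 fold change was -0.011 (SE 0.171, edgeR QL adjusted p = 0.986), with an interval from 0.753-fold to 1.31-fold. ME3 (ENSG00000151376, chr11:86441108-86672636, minus strand), the other mitochondrial malic enzyme, was at 73.6, 65.5 and 52.5 CPM in siCtrl and 77.9 and 60.8 CPM in siFAM53C, which overlapped. Its log2 fold change was 0.12 (SE 0.171, edgeR QL adjusted p = 0.8011), and the interval ran from 0.823-fold to 1.43-fold. In each condition ME1 and ME3 were lowest in the library that lay on the far side of the split, siCtrl replicate 3 and siFAM53C replicate 2. Within the sides the log2 difference of ME1 was 0.14 and -0.11, and that of ME3 was 0.17 and 0.21. ME1 therefore had no steady direction, and neither gene was called under any of the 15 other settings.

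Levels of the malic enzymes were compared with each other per kilobase (kb) of merged exons, since longer genes collect more counts. ME2 made up 11.2%, 11.9% and 13.4% of the summed level of ME1, ME2 and ME3 in siCtrl, and 2.99% and 4.05% in siFAM53C. The sum itself was 44.1, 41.5 and 34.7 CPM per kb in siCtrl and 43.3 and 32.3 CPM per kb in siFAM53C, which overlapped. ME2 was thus the smallest share of malic enzyme mRNA already in siCtrl, and the total varied more between libraries of a condition than between conditions. The share of ME3 was 43.5%, 41.2% and 39.4% in siCtrl and 46.8% and 49.0% in siFAM53C. As ME2 is part of that sum, a higher share of ME3 follows in part from the low ME2. The merged exons of ME2 are 15897 bases long and include retained introns, against 9031 bases of its canonical transcript. With canonical lengths its share was 14.3% to 17.3% in siCtrl and 3.94% to 5.23% in siFAM53C.

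**Figure D2:**
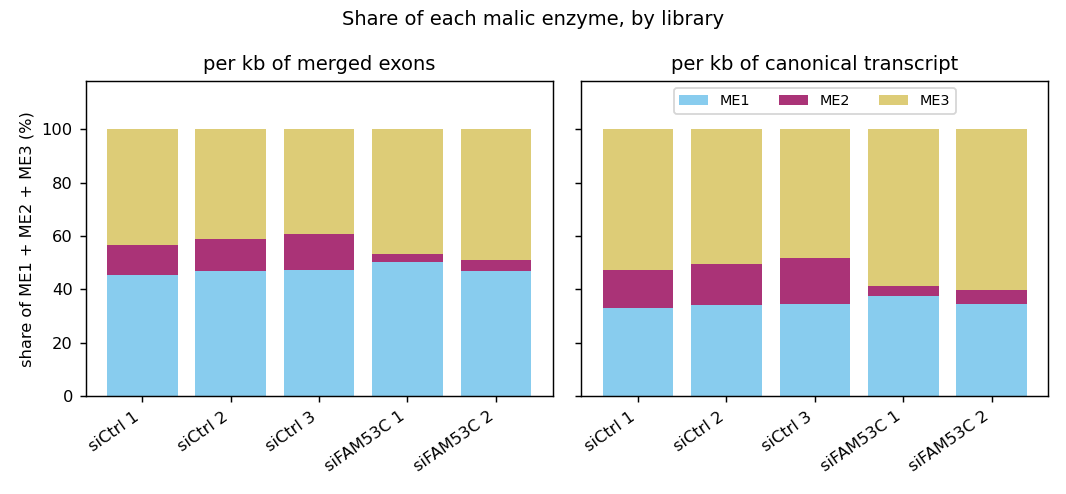
Share of ME1, ME2 and ME3 in their summed level (percent, stacked bars from 0 to 100) in each library, per kb of merged exons (left) and per kb of canonical transcript (right). By merged exons ME2 is 11.2% to 13.4% of the sum in siCtrl and 2.99% to 4.05% in siFAM53C.

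Both malate dehydrogenases were tested and neither passed. Cytosolic MDH1 (ENSG00000014641, chr2:63588609-63607197, plus strand) was at 128, 139 and 120 CPM in siCtrl and 140 and 126 CPM in siFAM53C. Mitochondrial MDH2 (ENSG00000146701, chr7:76048051-76067508, plus strand), which is also an enzyme of the tricarboxylic acid cycle, was at 238, 254 and 202 CPM in siCtrl and 247 and 216 CPM in siFAM53C. In both genes the siFAM53C values lay inside or next to the siCtrl range, with siCtrl replicate 3 the lowest of the 5 libraries. The log2 fold change was 0.047 (SE 0.111) for MDH1 and 0.0011 (SE 0.132) for MDH2, with an adjusted p = 0.8847 and 0.9982 by edgeR's QL test. The intervals ran from 0.865-fold to 1.23-fold for MDH1 and from 0.809-fold to 1.24-fold for MDH2. The ratio of MDH1 to MDH2, per kb of merged exons, was 0.393 to 0.433 in siCtrl and 0.414 to 0.426 in siFAM53C. MDH1 shares 191 exon bases with WDPCP on the opposite strand, and its value is uncertain to that extent if the counting did not use strand.

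The aspartate aminotransferases were likewise not called. Cytosolic GOT1 (ENSG00000120053, chr10:99396870-99430624, minus strand) was at 97.2, 102 and 102 CPM in siCtrl and 95.9 and 114 CPM in siFAM53C, so the siFAM53C libraries again held both the lowest and the highest value. Its log2 fold change was 0.058 (SE 0.111, edgeR QL adjusted p = 0.8558), within 0.871-fold to 1.24-fold. Mitochondrial GOT2 (ENSG00000125166, chr16:58707131-58734342, minus strand), the most abundant of the 10 genes, was at 263, 281 and 252 CPM in siCtrl and 259 and 240 CPM in siFAM53C. Here the log2 fold change was -0.088 (SE 0.108, edgeR QL adjusted p = 0.7589), within 0.791-fold to 1.12-fold. The ratio of GOT1 to GOT2 per kb of merged exons was 0.561 to 0.629 in siCtrl and 0.573 and 0.731 in siFAM53C, which overlapped. GOT2 overlaps an antisense gene over 162 exon bases, and its 6 annotated pseudogenes had at most 1 count over all libraries.

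Among the 3 carriers, SLC25A11 (ENSG00000108528, chr17:4937130-4940053, minus strand), which exchanges malate for 2-oxoglutarate, was at 73.8, 71.8 and 64.0 CPM in siCtrl and 70.2 and 67.4 CPM in siFAM53C. Its siFAM53C values lay inside the siCtrl range, and the log2 fold change was -0.023 (SE 0.11, edgeR QL adjusted p = 0.9499). The aspartate-glutamate carrier SLC25A12 (ENSG00000115840, chr2:171783405-171999859, minus strand) was at 30.5, 31.2 and 28.4 CPM in siCtrl and 37.6 and 29.5 CPM in siFAM53C. Only siFAM53C replicate 1 was above the siCtrl range, and the log2 fold change was 0.16 (SE 0.144, edgeR QL adjusted p = 0.6507). The related carrier SLC25A13 (ENSG00000004864, chr7:96120220-96322147, minus strand) was at 46.9, 55.0 and 46.9 CPM in siCtrl and 46.6 and 42.9 CPM in siFAM53C. Apart from ME2 it was the only member with both siFAM53C libraries below every siCtrl library, which held for 18.8% of all tested genes, and 0 members had both above every siCtrl library, which held for 16.7%. Its log2 fold change was -0.15 (SE 0.123, edgeR QL adjusted p = 0.6245), within 0.741-fold to 1.1-fold.

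The ratio of SLC25A12 to SLC25A13, per kb of merged exons, was 0.394, 0.344 and 0.367 in siCtrl and 0.488 and 0.417 in siFAM53C. The conditions did not overlap, and siFAM53C replicate 1 had the highest ratio. The ratios of MDH1 to MDH2 and of GOT1 to GOT2 did overlap. Among single genes such a full separation was common, with 18.8% of all tested genes lower and 16.7% higher in both siFAM53C libraries. The ratio was not tested, and neither gene was called alone. SLC25A11 shares 46 exon bases with RNF167 on the opposite strand, and SLC25A12 and SLC25A13 share none.

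**Figure D3:**
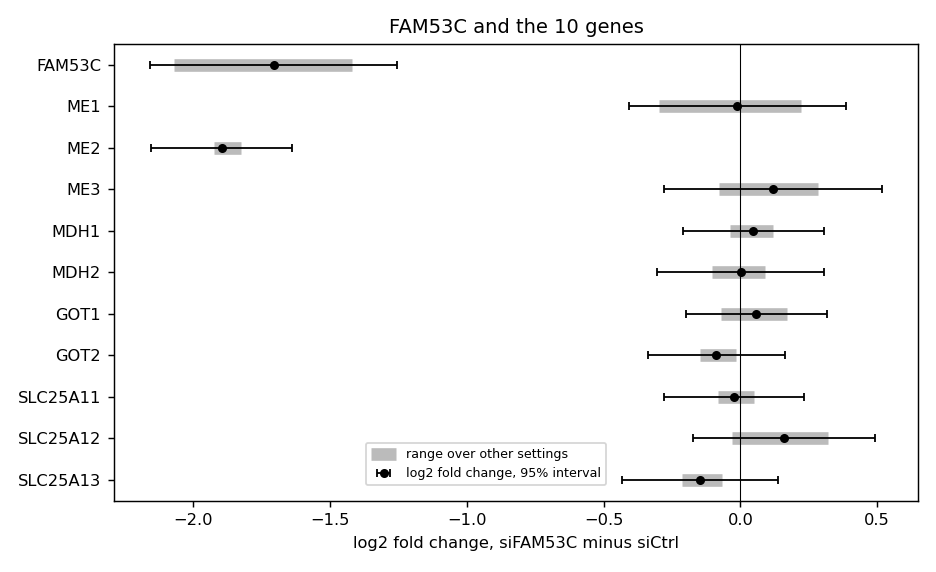
Log2 fold change (siFAM53C minus siCtrl) of FAM53C and the 10 genes, with points for the fitted value, black bars for its 95% interval and grey bars for the range over the 15 other settings. FAM53C (-1.71) and ME2 (-1.90) lie far below 0, and the intervals of the other 9 genes all include 0. The bar drawn for ME2 is not a test, as its fall chose the family.

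Per kb of merged exons in siCtrl, the mitochondrial enzymes GOT2 (70.8 ± 3.98 CPM per kb, SD, n = 3) and MDH2 (63.6 ± 7.25 CPM per kb) were highest, and their ranges overlapped. Next came GOT1 at 41.5 ± 1.22, SLC25A11 at 28.3 ± 2.1, MDH1 at 25.8 ± 1.86, ME1 at 18.6 ± 1.93, ME3 at 16.6 ± 2.77 and SLC25A13 at 13.4 ± 1.26 CPM per kb. The lowest were SLC25A12 at 4.90 ± 0.240 and ME2 at 4.85 ± 0.166 CPM per kb. Neighbours overlapped between SLC25A11 and MDH1, between ME1 and ME3, between ME3 and SLC25A13, and between SLC25A12 and ME2. The shuttle's dehydrogenases and aminotransferases were thus above the malic enzymes and the aspartate-glutamate carriers on this scale. The order depended on the length used: per kb of canonical transcript MDH1 was at 99.4 CPM per kb, above GOT1 at 50.8, and ME3 at 27.9 was above ME1 at 18.6. ME2, at 8.53 ± 0.292 CPM per kb, was then above SLC25A12 at 7.63 ± 0.374.

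The 68 further genes of the surrounding metabolism were put in 5 lists by function, with earlier results of these data known, and 61 of them had enough counts to be tested. Past the same threshold in edgeR's QL test 2 fell (SUCLG2 and ACLY) and 1 rose (SLC25A22), beside 3.47% and 0.489% of all tested genes. The median log2 fold change of the 61 was -0.066, with 39 below 0 and 22 above. Over all tested genes the median was 0.016, with 7391 below 0 and 7950 above.

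Of the 15 genes of the tricarboxylic acid cycle described here, all tested, 1 fell and 0 rose, at an unadjusted p under 0.05 these counts were 2 and 0, beside 10.5% and 6.61% of all tested genes, and the median was -0.058. SUCLG2 (ENSG00000172340), the GTP-forming subunit of succinyl-CoA synthetase, was at 92.0, 98.1 and 89.5 CPM in siCtrl and 41.6 and 46.8 CPM in siFAM53C, and fell by 1.08 log2 units (SE 0.113, edgeR QL adjusted p = 0.002479). Both siFAM53C libraries were far below the siCtrl libraries, with log2 differences of -1.19 and -0.93 within the sides. The most abundant genes of the cycle that were not called were CS, citrate synthase, with a log2 fold change of -0.14, and DLST, a subunit of the 2-oxoglutarate dehydrogenase complex, with 0.10.

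The list of other mitochondrial carriers, citrate export and the glycerol phosphate shuttle had 9 tested genes of 10, of which 1 fell and 1 rose, with a median of -0.056. ACLY (ENSG00000131473), which cleaves exported citrate to acetyl-CoA and oxaloacetate in the cytosol, was at 541, 507 and 535 CPM in siCtrl and 184 and 201 CPM in siFAM53C. It fell by 1.46 log2 units (SE 0.114, edgeR QL adjusted p = 0.0009627), and overlaps an antisense gene over 156 exon bases. SUCLG2 and ACLY were called lower under all 15 other settings. SLC25A22 (ENSG00000177542), a mitochondrial glutamate carrier, was at 76.2, 63.2 and 51.2 CPM in siCtrl and 131 and 101 CPM in siFAM53C. It rose by 0.87 log2 units (SE 0.185, edgeR QL adjusted p = 0.04889), close to the threshold, and shares 452 exon bases with PANO1 on the opposite strand. The call of SLC25A22 was lost without siCtrl replicate 1 (1.02) or 2 (0.87), without siFAM53C replicate 1 (0.66) or 2 (1.05), and with a prior estimated without robustness. GPD2, the mitochondrial glycerol-3-phosphate dehydrogenase of the other NADH shuttle, had a log2 fold change of -0.24, and SLC25A1, the citrate carrier, 0.38; neither was called.

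In the other 3 lists 0 genes fell and 0 rose by the QL test. All 16 genes of pyruvate use were tested, with a median log2 fold change of -0.087 and, at an unadjusted p under 0.05, 2 lower and 2 higher, beside the same 10.5% and 6.61%. LDHA and LDHB, the lactate dehydrogenase subunits, had log2 fold changes of -0.12 and -0.024. Of the 13 genes listed with other sources of NADPH, 11 were tested, with a median of -0.17 and 0 in either direction at an unadjusted p under 0.05. Not all of them make NADPH themselves, as the list also takes in related steps. PGD, a dehydrogenase of the pentose phosphate pathway, and MTHFD1, a cytosolic enzyme of folate metabolism, had log2 fold changes of -0.17 and -0.066. Of the 14 genes of glutamine, glutamate and aspartate use, 10 were tested, with a median of -0.18 and, at an unadjusted p under 0.05, 0 lower and 1 higher, on the same background. CAD, which starts pyrimidine synthesis from glutamine and aspartate, had a log2 fold change of 0.16, and the glutamine transporter SLC1A5 one of -0.34. DESeq2 called 2 genes higher and 2 lower over the 61, beside 2.02% and 6.98% of the 12749 genes it gave an adjusted p. With limma-voom 1 was higher and 2 lower, beside 0.482% and 3.35% of all tested genes.

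The heptamer GACAAGA was searched on the transcribed strand of the longest annotated 3′ UTR. It was present in 1400 of the 12075 tested genes with such a UTR (11.6%), and in 28.6% of the 500 genes closest to ME2 in UTR length. Among the 10 members it was in ME2 only, and among the 61 tested genes of the 5 lists it was in 7 (11.5%). These were SUCLG2 and ACLY, which fell, and SDHA, PDK1, MTHFD1, MTHFD2 and ADSL, which were not called and had log2 fold changes of -0.14, -0.43, -0.066, -0.29 and -0.17. Both the genes called lower and some genes not called therefore held it. In MTHFD1 it lies outside the UTR of the canonical transcript. The reverse complement was found in 14.8% of the same 12075 UTRs and in 43% of the same 500 genes closest to ME2 in UTR length. Among the members it was in 2 of 10, ME1 and GOT1. FAM53C holds 1 site. The sites of the 2 genes called lower are shown to be read beside those of ME2. They lie at chr3:67375325-67375353 on the minus strand (SUCLG2, 402 bases after the stop codon) and chr17:41867760-41867788 on the minus strand (ACLY, 33 bases after) of GRCh38, and read 5′ to 3′ on the transcribed strand:
SUCLG2: ttaaaaactcaGACAAGAttatatttaat
ACLY: agtaaactgaaGACAAGAtctcttccccc

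**Figure D4:**
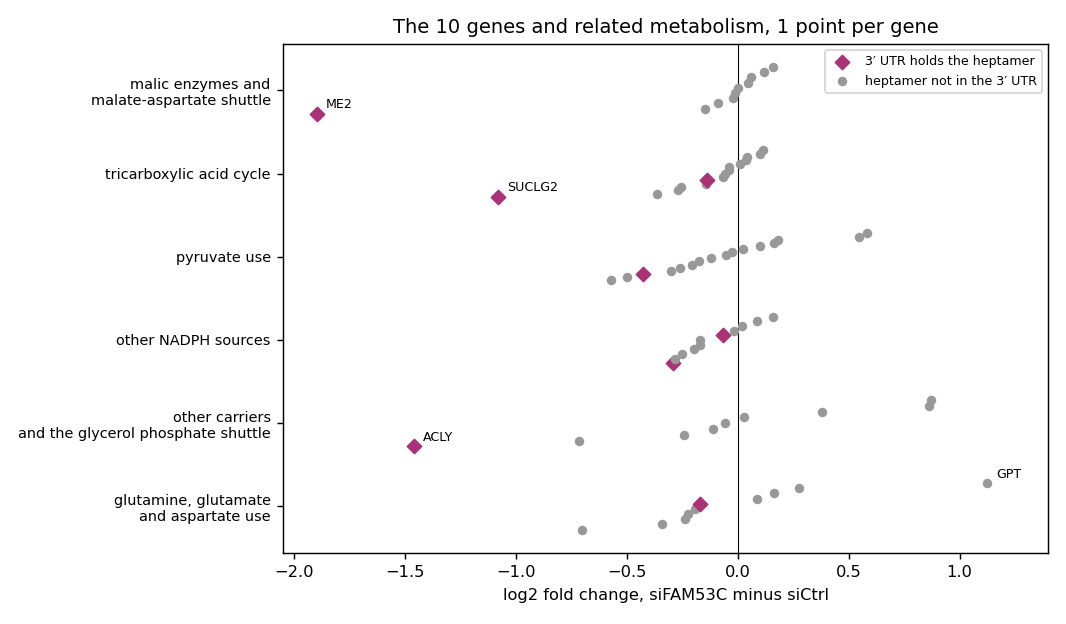
Log2 fold change (siFAM53C minus siCtrl) of the 10 genes and of the 61 tested genes in the 5 lists, 1 point per gene, with purple diamonds for genes whose 3′ UTR holds GACAAGA and grey circles for the others. ME2 (-1.90), ACLY (-1.46) and SUCLG2 (-1.08) are the diamonds far to the left, and the other 5 diamonds lie between -0.43 and -0.066.

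The genes with profiles most like that of ME2 were found among 9300 tested genes with a mean of at least 10 CPM, by the root mean square difference of centred log2 CPM over the 5 libraries. They were MTDH (0.0769), TMBIM6 (0.0790), TMEM64 (0.0801), PODXL (0.105) and ANTXR2 (0.105), with log2 fold changes of -1.80, -1.79, -1.96, -1.78 and -2.07. TMBIM6, an endoplasmic reticulum protein that protects from cell death, was at 826, 939 and 810 CPM in siCtrl and at 249 in both siFAM53C libraries. Of the 5, TMBIM6 and ANTXR2 hold GACAAGA in the 3′ UTR, with 1 and 2 sites. The UTRs of the 5 are 2038 to 6283 bases long, shorter than the 7073 bases of ME2. The heptamer was in 28.6% of the 500 genes closest to ME2 in UTR length, a share not matched to the lengths of these 5. Likeness to ME2 over 5 libraries rests largely on the contrast that chose ME2, and is given as a description.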

How the data were processed

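Per the labels, poly(A) RNA of 5 libraries was sequenced as paired reads. After trimming (CutAdapt 2.10) and alignment to hg38 (HISAT2, set to reverse strandedness), the authors made raw counts per gene with featureCounts on an hg38 GTF and deposited them without normalization; its release and the strand setting of the counting step are not given in the sources used here. Of 64252 identifiers, 56105 had a symbol in GENCODE release 44 (GRCh38), used here for names, positions and 3′ UTRs, and 0 columns lacked a sample. In edgeR 4.0.16 (R 4.3.3), genes were kept by filterByExpr with a minimum count of 10 and total of 15, scaled by TMM and compared by a quasi-likelihood fit with robust prior estimation and the condition only, and Benjamini-Hochberg adjustment over all 15341 tested genes at a threshold of 0.05. Robust estimation was chosen to match an earlier analysis of these data. Log2 CPM used a prior count of 2. The members and lists were chosen with earlier results of these data known, as was the library split. Genes named were FAM53C, the members, in each list every gene past the threshold (at most 6) and the 2 most abundant others, and the 5 nearest to ME2; other genes named, in the heptamer search, were added after their values were seen. Alternatives were DESeq2 1.42.0, limma-voom (limma 3.58.1), RLE or total-count scaling, other filters, replicate blocks, a term for the split and each library left out. The fits were tested on simulated data. Totals of 19260124 to 25615415 counts limit precision for genes with few counts. Some genes of these pathways are not reported here.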

Additional observations from a re-analysis of the deposited data

How the results depend on the processing

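The 9 members other than ME2 gave 0 calls in either direction under all 15 other settings, and ME2 ranged from -1.92 to -1.82, the latter with total counts only. Genes called lower were 533, against 890 with DESeq2, 961 with no filter on low counts, 1636 with a term for the library split and 157 to 886 with a library left out; genes called higher were 75, against 257 with DESeq2, 121 with total counts only, 375 with no filter, 1037 with the split term and 6 to 414 with a library left out. Of the genes in the 5 lists, 2 were lower and 1 higher. With the split term these were 9 and 4, where 10.7% of all tested genes were lower and 6.76% higher. With DESeq2 2 were higher, beside 2.02% over all its genes, and without robust estimation 0 were higher. With a siCtrl library left out 2 to 5 were lower and 0 to 1 higher, and the 5 lower came without siCtrl replicate 3. With 1 library left in siFAM53C, that library is assumed to vary like the controls. siFAM53C replicate 2 is numbered 3 in the library names. The deviations from the condition means correlated at 0.17 for replicate 1 in both conditions, -0.28 for replicate 2 and, by library names, 0.37 for siCtrl replicate 3 with siFAM53C replicate 2. The deviations of a condition sum to 0, so those of the 2 siFAM53C libraries are mirror images. The negative value for replicate 2 therefore means that siCtrl replicate 2 went positively with siFAM53C replicate 1. These correlations are not independent of each other, and with no label of a shared culture or day they do not establish a pairing. The replicate block by titles gave 856 lower and 355 higher genes and 6 and 2 in the lists; by library names it gave 1350 and 642, and 6 and 3.

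Small log2 fold changes changed sign, with no call before or after. With a replicate block by titles these were ME3 -0.012, MDH1 -0.0022 and MDH2 -0.089, with the block by library names ME1 0.0087, SLC25A11 0.00035 and LDHB 0.092, and with the split term ME1 0.037, SLC25A11 0.00093 and LDHB 0.047. With total counts only they were ME1 0.062, SLC25A11 0.049, LDHB 0.050 and MTHFD1 0.0061, with a filter at a mean CPM of 1 ME1 0.0025, and with no filter MDH2 -0.0015. With a library left out, the values reached from -0.30 to 0.22 for ME1, -0.078 to 0.28 for ME3, -0.036 to 0.12 for MDH1, -0.10 to 0.091 for MDH2, -0.071 to 0.17 for GOT1, -0.074 to 0.019 for SLC25A11, -0.030 to 0.32 for SLC25A12 and -0.20 to 0.13 for LDHB. Among the list genes followed by name across the settings, calls were gained by SLC25A1 (block by library names 0.51, split term 0.47), SLC1A5 (both blocks and the split term) and GPD2 (split term). Other genes of the lists also gained calls, as the counts above show. Why these values moved was not tested. Per kb of canonical transcript, levels in siCtrl moved by more than 1 SD for 9 of the 10 members. With these 5 libraries, the intervals of the 9 members reach 0.741-fold and 1.43-fold at their ends.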
